A study of Mus musculus with 19 samples.

Results

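The genes described here were 5 repressors of the circadian clock, the cryptochromes *Cry1* and *Cry2*, the clock repressor *Ciart* and the basic helix-loop-helix genes *Bhlhe40* and *Bhlhe41*. They were taken by symbol, and all 5 of 5 were found among the 24552 gene symbols listed once in the cornea and conjunctiva tables. Bulk RNA sequencing libraries of female C57BL/6J mice were compared between ad libitum feeding (AL, food always present) and calorie restriction (CR, a ration 40% below that intake). There were 5 AL and 5 CR libraries of corneal epithelium collected by scraping, called cornea here, and 4 AL and 5 CR libraries of excised conjunctiva. By the study's methods the diets ran for 4 months from an age of 6 to 7 months, and CR mice were fed daily at 5 PM, shortly before lights off. The methods describe 2 cohorts on different chows, and in the Houston cohort the CR chow held more vitamins and micronutrients. Which cohort gave these libraries is not stated. The labels call the mice 6 months old, which matches the start of the diets. Tissue was taken after the diets had run, so the mice were older than that label when sampled. The titles also carry a further code that is not explained. No transgene or drug is named for any group, and the hour of tissue collection is not given in the sources used here. The diets differed in ration and in feeding time together, so effects of these on the genes below cannot be told apart. With the hour unknown, a changed level also cannot be told from a shifted daily rhythm. A mouse could give more than a single tissue, so the cornea and conjunctiva libraries may share animals.

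In the mammalian clock, the BMAL1 and CLOCK proteins bind E-box elements and activate genes whose products return to shut them off. The cryptochromes, together with the PER proteins, bind the BMAL1 and CLOCK pair and silence it. *Ciart* encodes CHRONO, which binds BMAL1 and represses the same pair, while *Bhlhe40* (DEC1) and *Bhlhe41* (DEC2) encode factors that occupy E-boxes themselves and repress transcription there. These genes are also targets of the clock, so their RNA levels in peripheral tissues follow the time of day, and feeding time can shift that rhythm.

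*Ciart* and *Bhlhe41* rose in both tissues and had the highest increases of this group. In the cornea, the 5 repressors included the largest and the next largest log2 increase of all 12278 genes tested, *Bhlhe41* and then *Ciart*. *Cry2* rose in both tissues, *Bhlhe40* passed the test in the cornea alone, and *Cry1* passed it in neither. A gene was called when the Benjamini-Hochberg adjusted p over all tested genes was under 0.05 and the fold change over 1.5. By that rule 4 of 5 repressors were called higher in the cornea, where 0.749% of all genes were called higher and 1.22% in either direction. In the conjunctiva 3 of 5 were called higher, against 0.223% of 13929 genes called higher and 0.359% in either direction. Over the 5 genes the median log2 change was 1.16 (cornea) and 1.43 (conjunctiva), beside −0.03 and −0.02 over every tested gene.

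On the mouse build GRCm38.p6, *Cry1* (NCBI gene 12952) lies at chr10:85131700-85185054 and *Cry2* (12953) at chr2:92403646-92434085, both on the minus strand. *Ciart* (229599) is a short gene at chr3:95878500-95882257 on the minus strand. *Bhlhe40* (20893) and *Bhlhe41* (79362) share a chromosome but lie far apart, at chr6:108660629-108666925 on the plus strand and chr6:145858243-145865420 on the minus strand.

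The sequences before the start sites were searched for the E-box, the element that BMAL1 and CLOCK bind, and for related motifs. RefSeq entries on the mouse build GRCm38.p6 were matched for 4 of the 5 genes, all but *Bhlhe40*. Each line gives the 250 bases before the start site, 5′ to 3′ on the strand of the gene, in lower case. For *Cry2* and *Ciart* the start used lies inside the gene span given above, so their windows overlap those spans. Distances are counted from the start used. Capitals mark matches to the E-box CACGTG or to the E-prime box, a weaker relative, written CACGTT or AACGTG depending on strand.
Cry1, chr10:85185055-85185304, strand −: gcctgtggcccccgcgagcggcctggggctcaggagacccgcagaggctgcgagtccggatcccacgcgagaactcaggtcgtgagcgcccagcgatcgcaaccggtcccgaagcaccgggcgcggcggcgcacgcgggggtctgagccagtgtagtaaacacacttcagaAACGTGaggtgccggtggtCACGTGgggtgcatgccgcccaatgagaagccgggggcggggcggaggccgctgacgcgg
Cry2, chr2:92434070-92434319, strand −: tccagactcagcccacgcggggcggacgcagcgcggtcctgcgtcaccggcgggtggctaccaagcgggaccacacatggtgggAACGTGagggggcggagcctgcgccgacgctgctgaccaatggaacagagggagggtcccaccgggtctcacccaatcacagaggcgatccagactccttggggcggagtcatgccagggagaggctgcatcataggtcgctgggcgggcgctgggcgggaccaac
Ciart, chr3:95882229-95882478, strand −: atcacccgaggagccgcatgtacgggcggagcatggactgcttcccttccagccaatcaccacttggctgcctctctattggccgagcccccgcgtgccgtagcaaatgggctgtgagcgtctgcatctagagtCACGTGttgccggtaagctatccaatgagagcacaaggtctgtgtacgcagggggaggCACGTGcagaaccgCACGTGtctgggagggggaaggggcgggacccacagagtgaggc
Bhlhe41, chr6:145865421-145865670, strand −: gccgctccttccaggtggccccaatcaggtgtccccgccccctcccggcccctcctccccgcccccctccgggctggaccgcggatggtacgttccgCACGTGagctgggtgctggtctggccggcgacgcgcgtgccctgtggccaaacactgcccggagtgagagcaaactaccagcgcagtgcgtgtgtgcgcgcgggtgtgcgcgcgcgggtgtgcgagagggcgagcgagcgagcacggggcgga
*Ciart* held 3 E-boxes, whose first bases lie 116, 58 and 44 bases before the start. *Bhlhe41* held 1 at 153 bases, and *Cry1* held 1 at 60 bases beside an E-prime box at 79 bases. *Cry2* held an E-prime box at 166 bases and no E-box. Among the windows of 27025 genes, 6.86% held an E-box, 4.50% an E-prime box and 18 genes (0.0666%) at least 3 E-boxes. Neither the D-box TTANGTAA (2.44% of genes) nor the ROR element core AGGTCA or GGGTCA (26.4% of genes) was found in these 4 windows on either strand. These are matches of letters in a short window, and binding was not measured.

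**Figure D1:**
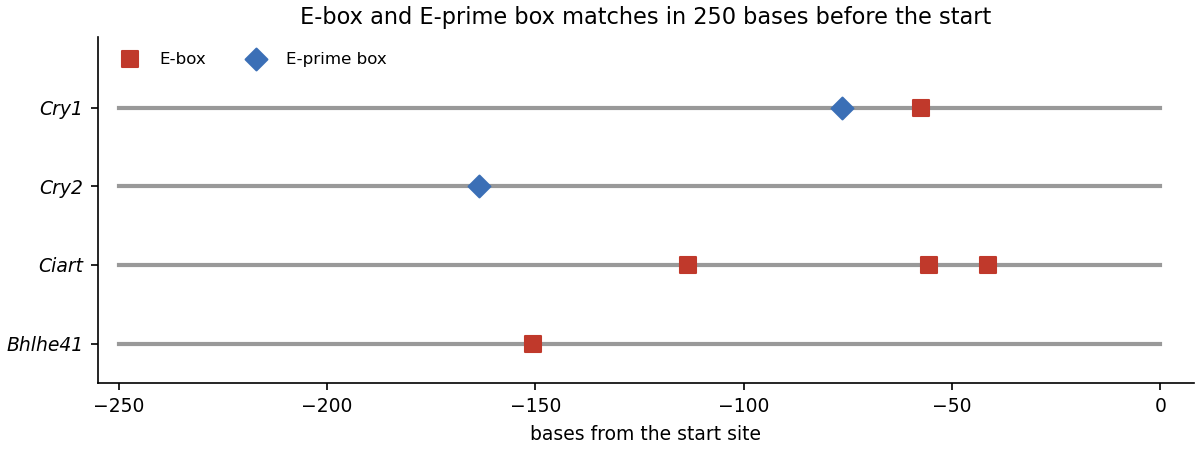
Map of the 250 bases before the start site of 4 repressor genes, with the distance from the start in bases on the horizontal axis, E-boxes as squares and E-prime boxes as diamonds. The *Ciart* line carries 3 squares, *Cry1* and *Bhlhe41* carry 1 each, and *Cry2* carries a diamond only.

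Libraries held between 10354125 and 14681223 counted reads. The share of listed genes without a read was 40.5% ± 2.70 (SD, n = 5) in cornea AL libraries and 44.4% ± 3.06 (n = 5) in cornea CR libraries (exact two-sided permutation p = 0.0714), and 35.3% ± 1.90 (n = 4) and 37.1% ± 2.29 (n = 5) in the conjunctiva (exact p = 0.238). Corneal epithelial markers (6 of 6 detected, including *Krt12* and *Pax6*) summed to between 481422 and 700996 normalized counts in the cornea, against 94262 to 146004 in the conjunctiva. Sums of the 6 conjunctival markers overlapped between tissues, with medians of 32480 (cornea AL), 31180 (cornea CR), 46093 (conjunctiva AL) and 52757 (conjunctiva CR). The 3 muscle markers had median sums of 30173 in conjunctiva AL and 31484 in conjunctiva CR libraries, and no cornea library exceeded 37.2. The blood list, with *Hba-a1* and *Hbb-bs* at 0 throughout, had medians of 343 and 687 in conjunctiva AL and CR libraries. Markers of other cells moved with diet in part. The 5 lacrimal gland markers summed to between 15.9 and 23125 normalized counts in cornea AL libraries and 0 to 5.48 in cornea CR libraries, and to 29.7 to 58.1 and 0 to 12.7 in the conjunctiva, with *Prol1* at 0 throughout. The 6 fibroblast markers had a median sum of 38916 in conjunctiva AL and 22374 in conjunctiva CR libraries. The 5 markers of macrophages and MHC class II had medians of 6516 and 3762. The genes of these lists moved unequally in the conjunctiva. *Col1a1* (log2 change −1.37), *Col3a1* (−1.57) and *Cd74* (−0.86) were called lower. The others were not called, from −1.47 (*Kera*) to −0.17 (*Dcn*) and from −1.43 (*Adgre1*) to −0.20 (*Csf1r*). In the cornea the median sums were 816 and 838 for the fibroblast list and 501 and 350 for the macrophage and MHC class II list. The part of these shifts in the results below was not tested, and in bulk tissue fewer cells of a type and less RNA of these genes per cell cannot be told apart.

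*Cry1* did not change detectably in either tissue. Its cornea AL libraries 1 to 5 had 124, 191, 96.0, 243 and 186 normalized counts, and cornea CR libraries 1 to 4 and 7 had 195, 199.8, 180.3, 174 and 145. The CR values lay inside the AL range. The means were 168 ± 58.3 and 179 ± 21.7 (SD, n = 5 each), and the log2 change was 0.15 ± 0.23 (SE), with a 95% interval from −0.32 to 0.63 (limma adjusted p = 0.756). In the conjunctiva, AL libraries 1, 3, 4 and 5 had 137, 189, 85.0 and 137 normalized counts and CR libraries 1 to 5 had 238, 142, 196, 95.3 and 111. Again the diets overlapped, and the log2 change of 0.16 ± 0.30 had an interval from −0.47 to 0.80 (limma adjusted p = 0.907). The upper limits of these intervals correspond to folds of 1.55 and 1.74.

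*Cry2*, the paralog of *Cry1*, was about 2 to 3 times higher under CR. Cornea AL libraries 1 to 5 had 307, 163, 129, 184 and 206 normalized counts, and CR libraries 1 to 4 and 7 had 574, 568, 428, 386 and 254. The diets overlapped, because AL 1 was above CR 7, and the other AL libraries were below every CR library. The log2 change in the cornea was 1.16 ± 0.24 (fold 2.23, limma adjusted p = 0.0292). That call was lost in 5 of 10 fits that left out a single library, with adjusted p between 0.0694 and 0.0895 without AL 2, AL 3, AL 5, CR 2 or CR 3, and it was also lost with the share of genes without reads as a covariate (log2 change 1.35, adjusted p = 0.0510). Conjunctiva AL libraries 1, 3, 4 and 5 had 213, 95.4, 144 and 157 normalized counts, all below the CR libraries 1 to 5 with 484, 439, 429, 382 and 280.4. There the log2 change was 1.43 ± 0.23 (fold 2.69, limma adjusted p = 0.0081), and the call held without each library in turn, with adjusted p up to 0.0436.

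*Ciart* had few reads in freely fed mice and many more under CR. Cornea AL libraries 1 to 5 had 9.90, 16.4, 5.46, 21.2 and 7.21 normalized counts, from 5 to 24 reads, and CR libraries 1 to 4 and 7 had 135, 213, 209.9, 153 and 114. Every CR library was above every AL library by a wide margin. The lowest AL library rested on 5 reads (95% Poisson interval 1.62 to 11.7, counting error only). The log2 change was 3.78 ± 0.38 (fold 13.7, 95% interval 7.89 to 23.9, limma adjusted p = 2.2e-05), and no left-out library removed the call. In the conjunctiva, AL libraries 1, 3, 4 and 5 had 4.02, 17.95, 11.8 and 6.36 normalized counts, and CR libraries 1 to 5 had 109, 75.2, 79.2, 32.8 and 46.5. Here too the diets did not overlap, and the nearest pair was CR 4 at 32.8 and AL 3 at 17.95. The log2 change was 2.72 ± 0.53 (fold 6.58, limma adjusted p = 0.0335). This call was lost in 5 of 9 fits that left out a library, with adjusted p between 0.0722 and 0.149 without AL 1, AL 4, AL 5, CR 1 or CR 2, and in a voom fit on the recovered reads (adjusted p = 0.166).

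The gene C920021L13Rik spans the whole of *Ciart* on the opposite strand in the GENCODE annotation, and the sources disagree on a stranded kit, so reads of the pair may not be separable. In the conjunctiva, C920021L13Rik had a mean of 4.93 ± 2.84 (SD, n = 4) under AL and 22.9 ± 13.0 (n = 5) under CR in normalized counts, a log2 change of 1.93 ± 0.77 that was not called (limma adjusted p = 0.423), and at most 15.1 in any cornea library. Opposite-strand genes also overlap *Cry2*, *Bhlhe40* and *Bhlhe41*, and those listed in the tables for *Cry2* and *Bhlhe40* stayed at or below 8.73 normalized counts in every library.

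*Bhlhe40* rose modestly in the cornea. Its cornea AL libraries 1 to 5 had 669, 497, 463, 685 and 532 normalized counts, and CR libraries 1 to 4 and 7 had 939.7, 778, 1087, 1023 and 1049, all above the AL range. The log2 change was 0.78 ± 0.14 (fold 1.72, limma adjusted p = 0.0065). In the conjunctiva, AL libraries 1, 3, 4 and 5 had 834, 629.5, 721 and 759 normalized counts and CR libraries 1 to 5 had 929, 796, 858, 986 and 1100.4. AL 1 was above CR 2, so the diets overlapped. The log2 change of 0.34 ± 0.14 had a 95% interval from 0.036 to 0.65 before adjustment and was not called (limma adjusted p = 0.460).

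*Bhlhe41* had the largest log2 increase of all tested genes in the cornea and the smallest p of all tested genes in the conjunctiva. Cornea AL libraries 1 to 5 had 26.4, 7.65, 40.4, 34.5 and 7.21 normalized counts, from 7 to 39 reads, and CR libraries 1 to 4 and 7 had 582, 399.5, 370.5, 256 and 274. The lowest CR library was far above the highest AL library. The log2 change was 4.21 ± 0.45 (fold 18.5, 95% interval 9.42 to 36.2, limma adjusted p = 3.2e-04). Conjunctiva AL libraries 1, 3, 4 and 5 started higher, at 105, 71.8, 161 and 105 normalized counts, and CR libraries 1 to 5 had 593, 584, 885, 656 and 492. Again no values overlapped, and the log2 change was 2.55 ± 0.23 (fold 5.87, 95% interval 4.20 to 8.20, limma adjusted p = 6.6e-05). Neither call was lost when any library was left out.

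Every CR library was above every AL library for *Ciart*, *Bhlhe40* and *Bhlhe41* in the cornea, a pattern found for 2.08% of all tested genes, and for *Cry2*, *Ciart* and *Bhlhe41* in the conjunctiva, where 1.92% of genes had it.

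**Figure D2:**
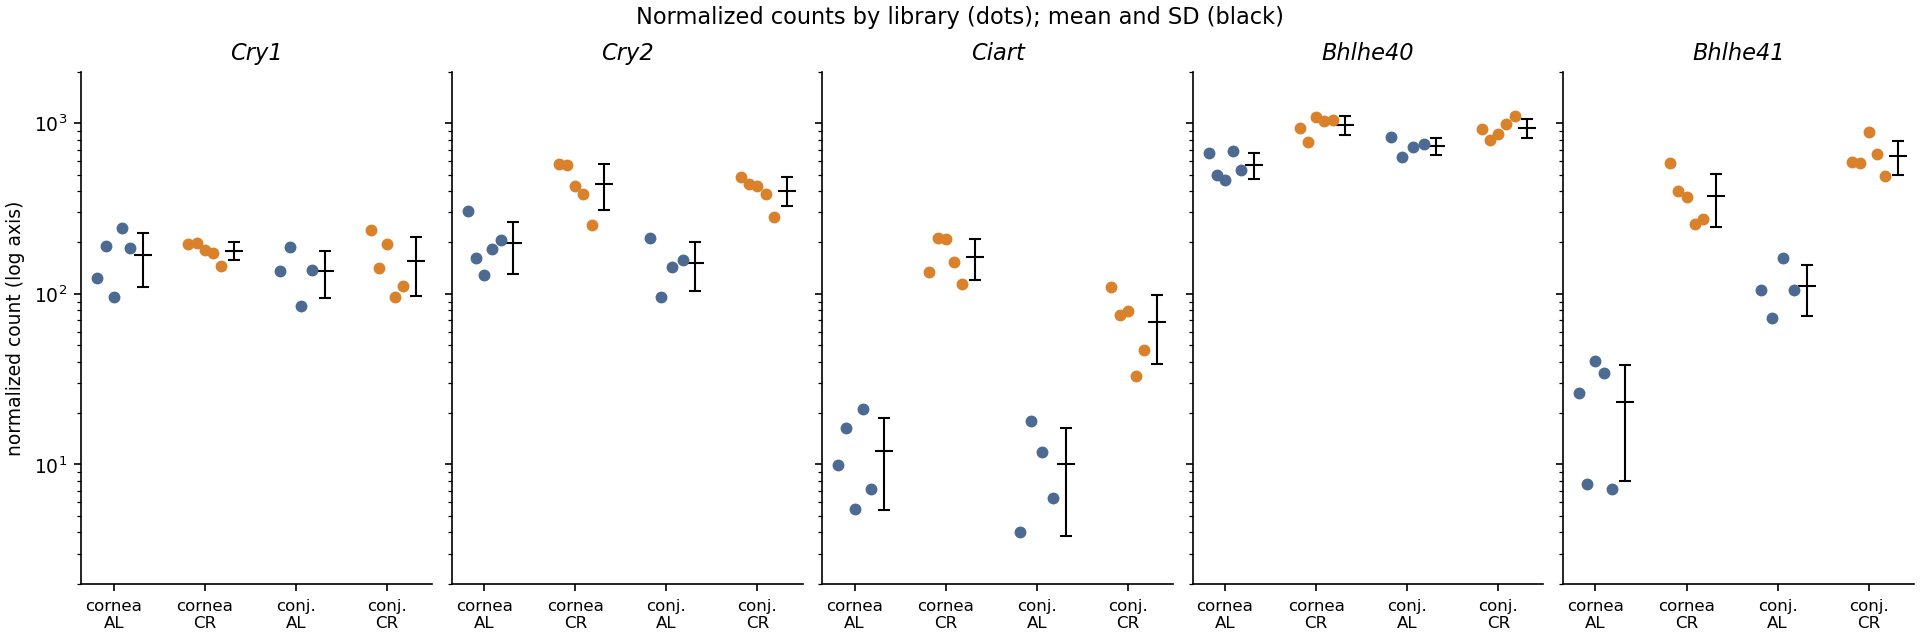
Normalized counts on a log axis for the 5 repressor genes, with a dot for each library of cornea AL, cornea CR, conjunctiva (conj.) AL and conjunctiva CR, blue for AL and orange for CR, and the mean ± SD in black. *Ciart* and *Bhlhe41* separate the diets in both tissues, while the *Cry1* dots of the diets overlap.

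**Figure D3:**
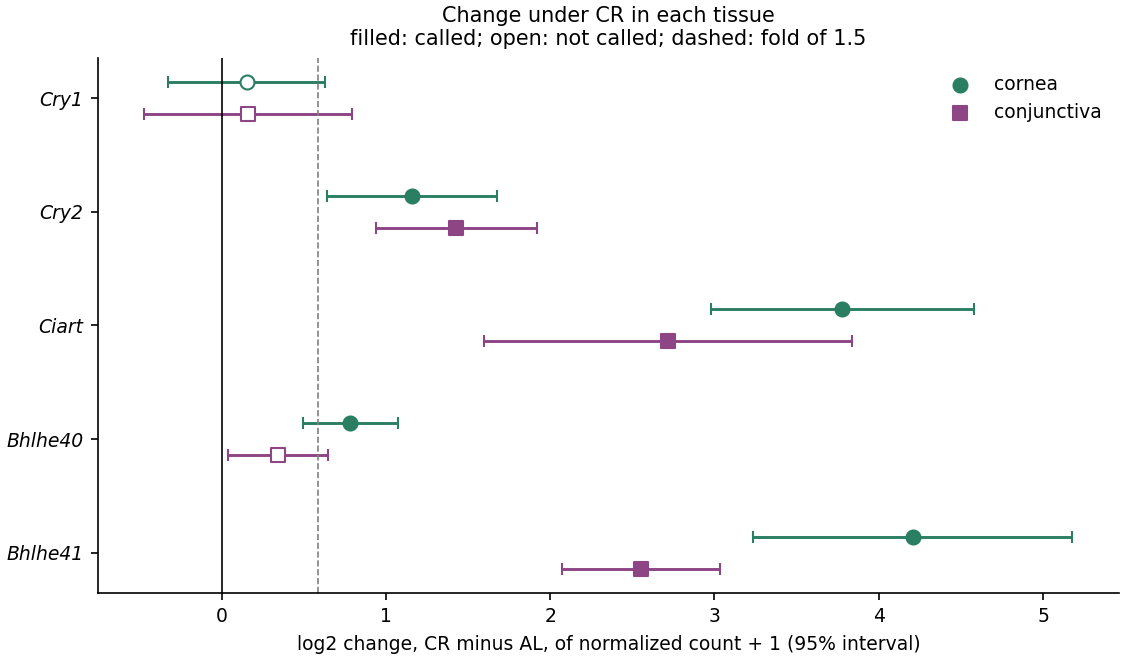
Log2 change under CR with its 95% interval for each gene, as circles in the cornea and squares in the conjunctiva, filled where the gene was called. The dashed line marks a fold of 1.5. *Bhlhe41* in the cornea lies farthest right at 4.21, and the *Cry1* intervals cross 0 in both tissues.

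The tissues were set side by side in CPM, the reads of a gene per 1000000 counted reads, since each table had been scaled on its own. *Bhlhe41* had the widest spread of levels, at 2.01 ± 1.34 CPM (SD, n = 5) in cornea AL, 9.41 ± 3.23 (n = 4) in conjunctiva AL, 32.8 ± 11.7 (n = 5) in cornea CR and 51.6 ± 15.0 (n = 5) in conjunctiva CR libraries. Each step up to cornea CR cleared the range before it, and the CR groups of the tissues overlapped. *Ciart* was at 0.845 ± 0.514 in conjunctiva AL and 1.03 ± 0.565 in cornea AL libraries, which overlapped, then at 5.56 ± 2.66 in conjunctiva CR and 14.4 ± 4.11 in cornea CR libraries, each above the range before it. *Cry2* ran from 12.9 ± 4.28 in conjunctiva AL over 17.0 ± 5.59 in cornea AL and 32.3 ± 7.77 in conjunctiva CR to 38.5 ± 12.0 in cornea CR libraries. *Bhlhe40* ran from 49.0 ± 8.32 in cornea AL over 62.3 ± 8.06 in conjunctiva AL and 74.0 ± 6.44 in conjunctiva CR to 84.8 ± 11.2 in cornea CR libraries. *Cry1* lay between 11.5 ± 3.44 and 15.6 ± 2.11 in all 4 groups. For *Cry2*, *Bhlhe40* and *Cry1*, every neighbouring pair of groups in that order overlapped.

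Whether the diet effect itself differed between tissues was tested for each gene as the difference of its log2 changes. No repressor passed this test, which only 0.0168% of 11929 genes passed. The difference, conjunctiva minus cornea, was −1.65 ± 0.51 (SE) for *Bhlhe41*, which had the smallest p of the 5 genes (limma-based adjusted p = 0.400, unadjusted 0.0037). It was −1.06 ± 0.65 for *Ciart*, −0.44 ± 0.20 for *Bhlhe40*, 0.27 ± 0.34 for *Cry2* and 0.0096 ± 0.38 for *Cry1*, with adjusted p of 0.642 or higher. The call of *Bhlhe40* in the cornea alone therefore does not show that the tissues differed. This test treats the tissues as separate, though they may share animals. Over the titles that both tissues share, the *Bhlhe41* difference was −1.37 ± 0.59 (limma adjusted p = 0.859, unadjusted 0.0490).

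Each pair of paralogs moved unequally. The log2 ratio of *Cry2* over *Cry1* within a library is nearly free of how that library was scaled, apart from the pseudocount of 1 added to each count. In the cornea it averaged 0.25 ± 0.67 (SD, n = 5) under AL and 1.25 ± 0.30 (n = 5) under CR, a difference of 1.004 (exact two-sided permutation p = 0.0317, adjusted over 4 ratios 0.0317). The AL library 1, at 1.297, lay among the CR values, and the adjusted p rose to 0.0635 without cornea AL 2, AL 3, AL 4, AL 5, CR 1 or CR 2. In the conjunctiva the ratio went from 0.15 ± 0.79 (n = 4) to 1.42 ± 0.39 (n = 5) without overlap (exact p = 0.0159, the smallest these group sizes allow, adjusted 0.0212).

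The ratio of *Bhlhe41* over *Bhlhe40* moved further. In the cornea it went from −4.85 ± 1.07 (SD, n = 5) to −1.43 ± 0.58 (n = 5), a difference of 3.42 (exact p = 0.0079, the smallest possible, adjusted 0.0212), which was 2.85 at a pseudocount of 10. In the conjunctiva it went from −2.77 ± 0.43 (n = 4) to −0.56 ± 0.43 (n = 5), a difference of 2.21 (exact p = 0.0159, adjusted 0.0212). The diets did not overlap in either tissue. The counts are not divided by transcript length, so a ratio below 0 does not rank the paralogs.

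**Figure D4:**
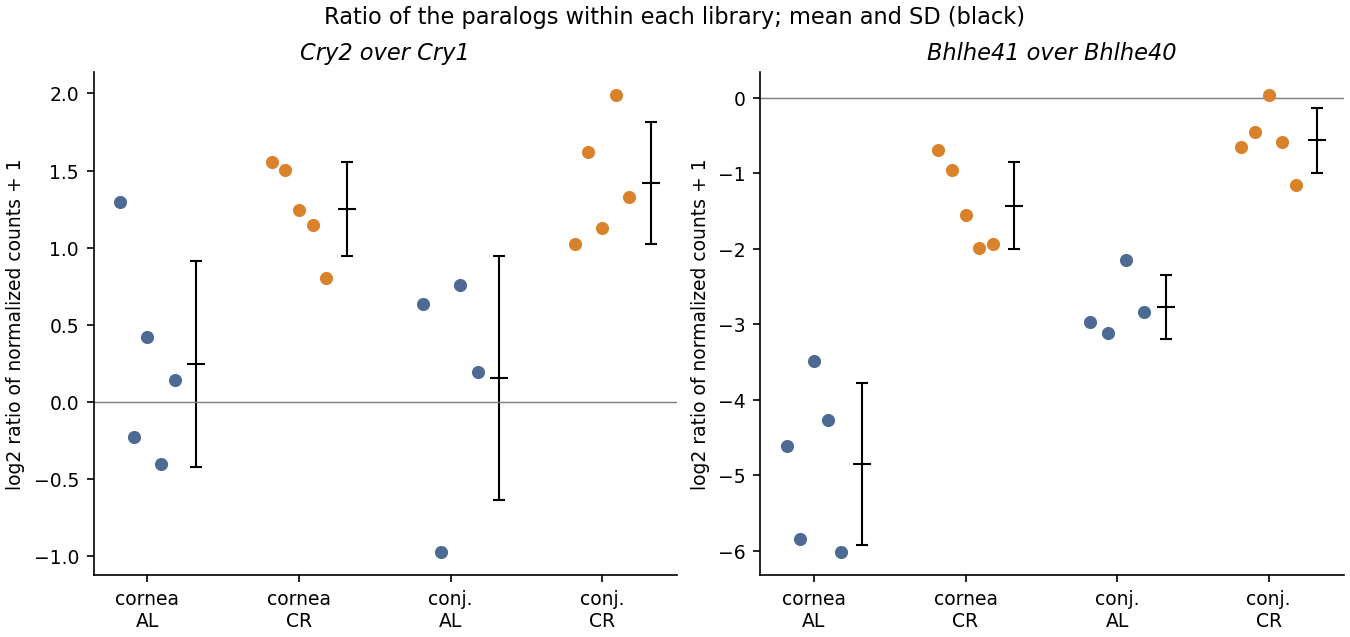
Log2 ratio of the normalized counts of *Cry2* over *Cry1* (left) and *Bhlhe41* over *Bhlhe40* (right), with a dot per library by tissue and diet and the mean ± SD in black. In the right panel all CR dots are above the AL dots of the same tissue, and in the left panel the single cornea AL library at 1.297 reaches the CR range.

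The other core clock genes gave the setting. Of 16 tested, 7 were called higher and 1 lower in the cornea and 7 higher and 0 lower in the conjunctiva (limma). Over all tested genes, 0.749% were called higher and 1.22% in either direction in the cornea, and 0.223% and 0.359% in the conjunctiva. At an unadjusted p under 0.05 there were 13 and 14 of the 16, against 18.1% and 9.40% of all tested genes. The list medians were 0.23 and 0.78. The repressors of the PER family moved with the genes above. *Per2* rose by 2.998 ± 0.19 on the log2 scale in the cornea and 1.84 ± 0.19 in the conjunctiva, and *Per3* by 0.90 ± 0.17 and 1.44 ± 0.19. *Per1* rose by 2.67 ± 0.30 in the cornea, and its conjunctiva change of 1.55 ± 0.35 was not called (limma adjusted p = 0.117).

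Among the nuclear receptors that repress *Arntl*, *Nr1d1* rose by 1.23 ± 0.25 in the cornea and 1.25 ± 0.23 in the conjunctiva, and *Nr1d2* by 0.76 ± 0.15 and 1.14 ± 0.19. The *Nr1d1* calls lay near the threshold, at a limma adjusted p of 0.0406 in the cornea and 0.0396 in the conjunctiva, and many fits lost them. In the cornea that call was lost without AL 1, AL 3, AL 5, CR 2, CR 3, CR 4 or CR 7 (adjusted p up to 0.119), and in the conjunctiva without AL 4, CR 1, CR 2 or CR 4 (up to 0.170) and under TMM and quantile scaling (0.0521 and 0.0688). *Nr1d2* lost its cornea call without AL 2 (adjusted p = 0.0578) or CR 3 (0.0649).

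The PAR bZIP output factors *Dbp* and *Tef* rose by 2.82 ± 0.24 and 1.72 ± 0.15 in the cornea and by 2.80 ± 0.25 and 1.80 ± 0.22 in the conjunctiva. *Hlf*, of the same family, was called in the conjunctiva (0.89 ± 0.16), a call lost without AL 3, AL 4, CR 1, CR 2 or CR 4 (adjusted p up to 0.0967), and had a change of 0.26 ± 0.10 in the cornea. *Arntl*, which encodes BMAL1, the target of these repressors, was called lower in the cornea. It had 230.4 ± 64.4 normalized counts under AL and 87.1 ± 35.6 under CR, and its log2 change was −1.46 ± 0.30 (limma adjusted p = 0.0195). The call was lost without AL 2, AL 5 or CR 2, at an adjusted p of 0.0684 to 0.0732. In the conjunctiva *Arntl* had 179 ± 39.3 normalized counts (SD, n = 4) under AL and 16.1 ± 12.3 (n = 5) under CR, with a CR library at 0. Its log2 change there was −4.03 ± 0.86 and was not called (limma adjusted p = 0.0937). It was called lower at a pseudocount of 10 (−2.98), with quantile scaling (−3.80), voom (−4.23) or array weights (−3.86), and without CR 4 (−3.17), at adjusted p from 9.6e-04 to 0.0400, and over the other settings the adjusted p ran from 0.0600 to 0.280. *Npas2* was also called lower in the conjunctiva with array weights (−1.16), and *Clock* with a covariate for genes without reads (−0.81) or without CR 5 (−0.72). In the cornea *Rorb* was called lower with array weights (−3.91) or without AL 4 (−4.07).

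**Figure D5:**
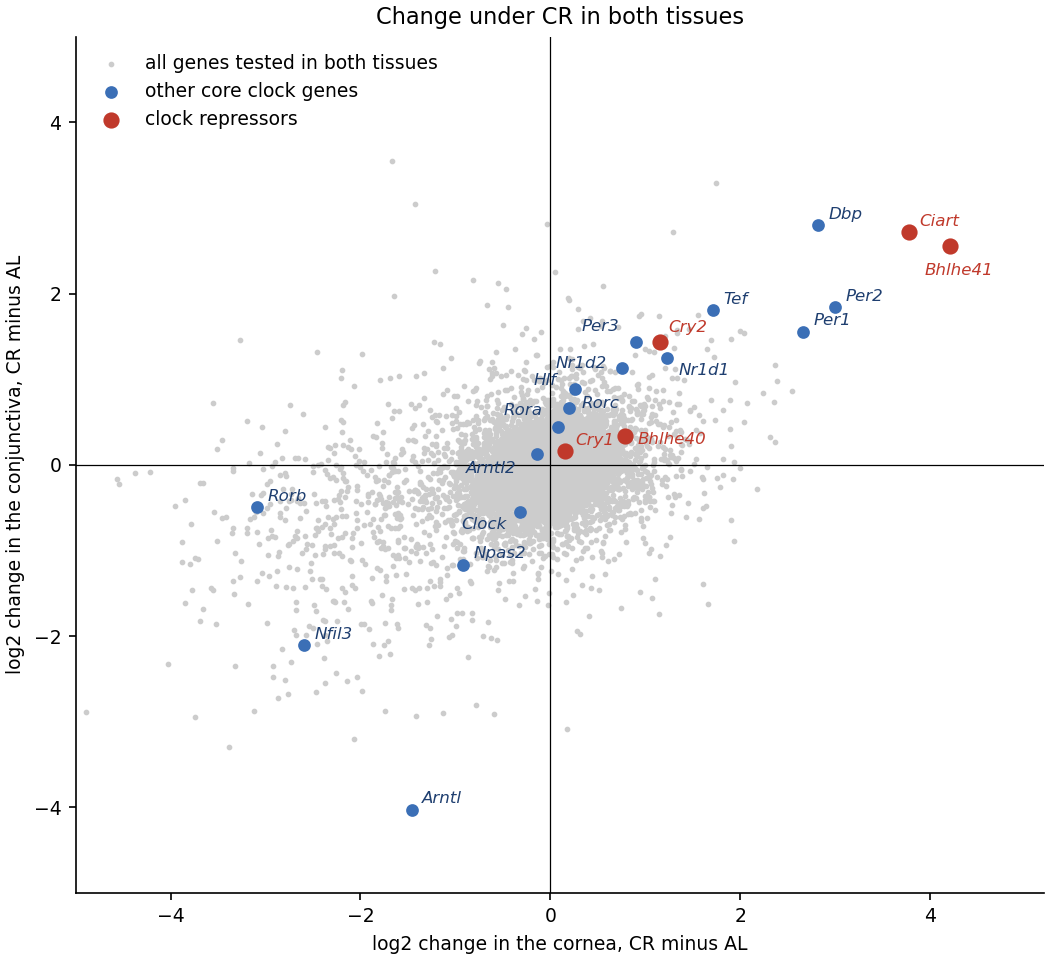
Log2 change under CR in the cornea (horizontal) against the conjunctiva (vertical) for the 11929 genes tested in both, in grey, with the clock repressors in red and other core clock genes in blue, and 5 genes outside the axes not shown. *Ciart* and *Bhlhe41* lie at the upper right beside *Dbp*, *Per1* and *Per2*, *Cry1* lies near the origin and *Arntl* at the lower left.

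Genes that act on cryptochrome and PER proteins were counted in the same way. Of 14 tested genes for ubiquitin ligase subunits, kinases and related factors, 1 was called in each tissue, against 1.22% and 0.359% of all genes. It was *Usp2*, which encodes a deubiquitinase that acts on clock proteins, with a log2 change of 1.34 ± 0.17 in the cornea and 1.54 ± 0.21 in the conjunctiva (limma adjusted p = 3.5e-04 and 0.0033). At an unadjusted limma p under 0.05 there were 3 and 2 of the 14, against 18.1% and 9.40% of all tested genes.

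*Bhlhe40* and *Bhlhe41* are also known as genes induced by low oxygen, so hypoxia factors and targets were counted. In the cornea 1 of 13 tested was called, the glycolytic regulator *Pfkfb3* (log2 change 0.65 ± 0.13, limma adjusted p = 0.0163), and fits that left out AL 1, AL 5 or CR 3 gave an adjusted p of 0.0503 to 0.0636. At an unadjusted p under 0.05 there were 7 of 13 in the cornea, against 18.1% of all genes. Besides *Pfkfb3* these had log2 changes of 1.58 ± 0.57 (*Bnip3*), 0.58 ± 0.18 (*Ndrg1*), 0.41 ± 0.13 (*Pdk1*), −0.53 ± 0.21 (*Slc2a1*), −0.41 ± 0.11 (*Egln3*) and −0.34 ± 0.12 (*Epas1*). *Ndrg1* was called with array weights (adjusted p = 0.0067) or without CR 7 (0.0021), and *Bnip3* with array weights (0.0386). In the conjunctiva 0 of 16 were called by limma, with 2 at an unadjusted p under 0.05, *Ddit4* (0.70 ± 0.26) and *P4ha1* (−0.62 ± 0.21). Of the Hes and Hey genes, relatives of the Bhlhe pair, 0 of 2 tested in the cornea and 0 of 5 in the conjunctiva were called by limma, with 0 and 1 at an unadjusted p under 0.05. The list medians were 0.19 and 0.12 for the turnover genes, 0.02 and −0.02 for the hypoxia genes and 0.10 and 0.34 for the Hes and Hey genes, cornea first. Dropping the fold threshold, at which 1.53% of genes in the cornea and 0.359% in the conjunctiva passed, changed none of the list counts. With a covariate for genes without reads, *Nr1d1* in both tissues and *Per3*, *Arntl* and *Pfkfb3* in the cornea were no longer called (adjusted p from 0.0587 to 0.185), while *Clock* (−0.81, adjusted p = 0.0189) and *Ddit4* (1.02, adjusted p = 0.0159) were called in the conjunctiva.

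The genes whose pattern was most like each repressor were ranked by Pearson r over the 19 libraries, after removing each tissue's mean. For *Bhlhe41* they were *Per2* (r = 0.957), *Dbp* (0.944) and *Tef* (0.9304). For *Cry2* they were *Tef* (0.919), *Dbp* (0.917) and *Usp2* (0.907), and for *Ciart* *Coq10b* (0.916), *Per2* (0.901) and *Tef* (0.888). *Bhlhe40* was closest to *Cyp2a5* (0.898), *Eif1a* (0.869) and *Anxa7* (0.865), and *Cry1* to *Spaca6* (0.719), *Sbf1* (0.709) and *Ppm1a* (0.706). The libraries share the contrast of diets, so these values describe these libraries only. Among the repressors themselves, r was 0.883 for *Ciart* and *Bhlhe41*, 0.824 for the Bhlhe pair and 0.273 for the cryptochromes.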

How the data were processed

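RNA sequencing of cornea and conjunctiva gave 19 libraries, grouped by their labels (5 AL and 5 CR cornea, 4 AL and 5 CR conjunctiva) and numbered as in the labels. A figure legend of the study exchanges the conjunctiva group sizes. The authors trimmed single reads with cutadapt, aligned them with STAR to mm10 and counted genes with HTSeq. The submitters' processing notes name GRCm39, and the labels and methods name different library kits, so the build, the library type and the use of strand are not settled. The values deposited by the authors are log2 of each count, divided by a DESeq2 size factor, plus 1, and each tissue has its own scaling. All values (100%) gave whole reads within 0.01, and 5 repeated symbols were dropped from 24557 features. Depth was 10354125 to 14681223 reads, and a value of 0 was taken to allow an expected count of up to 3 reads, 2.27 to 3.37 normalized counts.

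Diets were compared within a tissue with limma 3.58.1 (statmod 1.5.0, R 4.3.3; intensity trend, robust moderation) on log2(normalized count + 1) where a gene averaged 10 or more normalized counts, with Benjamini-Hochberg adjustment. Changes on this scale understate those of low genes. Tissue differences used Satterthwaite degrees of freedom, and paralog ratios used exact two-sided permutation tests (scipy 1.17.1). The labels do not say that libraries came from separate mice, though figure legends of the study count them as mice. The p-values measure only the spread between libraries. The procedure was tested on simulated counts. No batch is given in the labels.

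Other settings changed the pseudocount (0.5 or 10), the filter (none, or a mean of 50), the scaling (TMM or quantile), the model (voom on recovered reads, array weights, a covariate for the share of genes without reads, a block for the replicate number) and the libraries used (each left out in turn). The tissue difference was also taken over titles that both tissues share. Gene positions are from GENCODE M21 and RefSeq on GRCm38.p6. The repressors were described in full, and of the lists (core clock, turnover, hypoxia, Hes and Hey) each gene called in a tissue was named; genes named for an unadjusted p under 0.05 or a call under another setting were added after their values were seen. The members and lists were chosen with earlier results of these data known.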

Additional observations from a re-analysis of the deposited data

How the results depend on the processing

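Of 99 log2 changes of the 5 repressors under alternatives other than leaving out a library, 93 kept their direction and their side of the threshold. Values are log2 changes unless given as counts. *Ciart* in the conjunctiva lost its call with voom (2.92) and *Cry2* in the cornea with a covariate for genes without reads (1.35), which also turned *Cry1* in the cornea to −0.011. The filter at a mean of 50 left *Ciart* in the conjunctiva untested. Called genes (150 in the cornea, 50 in the conjunctiva) numbered 705 and 149 with array weights, and in the cornea 99 with voom and 62 with the covariate; causes of these shifts were not tested. Per shared title, the tissue difference of *Cry1* was −0.026.

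With the replicate number as a block, 54 and 12 genes were called, and *Bhlhe40* in the cornea (0.74), *Cry2* (1.39) and *Ciart* (2.66) in the conjunctiva were not, while *Ndrg1* in the cornea was (0.82). Of the other core clock genes, 6 were called higher and 0 lower in the cornea, and 4 and 0 in the conjunctiva. *Arntl* and *Pfkfb3* in the cornea and *Usp2* in the conjunctiva were no longer called. The deviations gave little sign that the numbers pair libraries, though 4 shared numbers per tissue are too few to exclude it. Same-numbered AL and CR libraries had correlations of deviations from −0.30 to 0.29 (cornea) and from −0.06 to 0.05 (conjunctiva), and 1 of 8 and 0 of 8 libraries correlated best with their own number.

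Leaving out single libraries gave 53 (without AL 5) to 536 (without AL 4) called genes in the cornea. In the conjunctiva it gave 26 (without CR 2) to 127 (without CR 3). *Cry2* in the cornea ran from 1.02 to 1.34, *Ciart* in the conjunctiva from 2.40 to 3.04, *Cry1* from −0.029 to 0.30 (cornea) and from −0.046 to 0.33 (conjunctiva), the tissue difference of *Cry1* from −0.20 to 0.19 and the cornea ratio of *Cry2* over *Cry1* from 0.84 to 1.27. The low AL counts, from 5 reads upward for *Ciart* and from 7 reads upward for *Bhlhe41* in the cornea, limit the precision of the largest folds.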

Other observations

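With the mean of each tissue and diet group removed, so that only the spread between libraries of a group was left, Pearson r over the 19 libraries was −0.03 for *Ciart* and *Bhlhe41* (0.883 with the tissue means alone removed) and 0.099 for *Bhlhe40* and *Bhlhe41* (0.824). It was 0.22 for *Cry1* and *Cry2* (0.273), and 0.655 for *Cry1* and *Ciart*, the highest value and above the 0.394 with the tissue means alone removed. The most similar genes were then *Ranbp3* for *Cry2* (r = 0.838), *Tmed8* for *Ciart* (0.803), *Bhlhb9* for *Bhlhe40* (0.786), *Tfdp1* for *Cry1* (0.768) and *Zbtb8b* for *Bhlhe41* (0.763), none of which is among the clock genes listed. The values are descriptions over libraries that share depth and preparation, with no test.

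With the same means removed, the share of genes without reads had a Pearson r of 0.429 with *Bhlhe40*, −0.261 with *Cry2*, −0.098 with *Bhlhe41*, −0.059 with *Ciart* and −0.016 with *Cry1*, given as a description.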
